A study of Mus musculus with 41 samples.

Results

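The H3K36me3 regions called in cultured mouse cortical neurons of the LSD1n WT genotype were compared between 1 h and 0 h of KCl. The members are all H3K36me3 regions on chromosomes 1 to 19 of these lists: 17408 regions at 1 h and 11459 at 0 h, 28867 together, of 488881 called peaks in the 27 lists of the series. A region at 1 h that no 0 h region overlaps by at least 1 bp is called gained, a region that overlaps one is called kept, and a 0 h region that no 1 h region overlaps is called lost. These names describe presence in a list of called regions, not a measured change of the mark at that position.

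Trimethylation of lysine 36 of histone H3 is written mainly by SETD2, an enzyme that travels with elongating RNA polymerase II (Pol II), and it accumulates over the bodies of transcribed genes rather than at their promoters. Long transcribed genes therefore appear in peak lists as runs of separate regions. A KCl bath depolarizes neurons, opens voltage-gated calcium channels and induces activity-dependent transcription. LSD1n is the neuronal splice form of the histone demethylase LSD1 (KDM1A).

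All the libraries described here were chromatin immunoprecipitations from primary cortical neurons at 10 days in vitro. The main groups are LSD1n WT with 1 h in 55 mM KCl and LSD1n WT at 0 h. Set beside them are LSD1n KO, in which the LSD1n form is deleted, at 1 h and at 0 h of KCl, and Pol II lists for both genotypes and both times. Counts of antibody targets also draw on Flag-LSD1n lists of R26/LSD1n neurons, Flag-LSD1c lists of R26/LSD1c neurons and LSD1 lists. The LSD1 lists are of wild type, LSD1n WT and LSD1n KO neurons, the last with no KCl time given. With 1 library per group, differences between groups could not be tested, and no p-value is given. Bracketed ranges are 95% exact intervals for counting error alone, and they treat regions as independent, which neighbouring regions of one gene are not. The labels do not give the number of animals or cultures behind a library. Genes are not named, because an annotation of build mm9 was not used here, and the neuronal label was not checked against marker genes.

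The 1 h library was the shallower one, with 16785574 tags against 19055899 at 0 h, yet 3.24% of its tags lay in regions, against 1.99% at 0 h. The cut for a 500 bp peak was 18 tags at 1 h and 20 at 0 h, which is nearly the same cut relative to depth (1.07 at 1 h and 1.05 at 0 h per 1000000 tags). All 4 H3K36me3 libraries share the title prefix hs52l5. Tags per kb of region were 35.7 at 1 h and 40.8 at 0 h. These values are not scaled to depth, and the 0 h library was the deeper one, so they do not show weaker signal at 1 h.

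After 1 h of KCl more H3K36me3 regions were called, and they covered more of the genome. The 17408 regions at 1 h and 11459 at 0 h gave a ratio of 1.52 (1.48 to 1.56), or 0.60 on the log2 scale (0.57 to 0.64). They covered 15.1 Mb at 1 h and 9.13 Mb at 0 h, a ratio of 1.66. The excess was present on each of the 19 chromosomes, with ratios between 1.34 and 1.66 and lower limits above 1 on all of them. In LSD1n KO the lists ran the other way, with 3152 regions at 1 h and 3612 at 0 h, a log2 ratio of -0.20 (-0.27 to -0.13), and the KO ratio was below 1 on 17 of 19 chromosomes. The WT log2 ratio minus the KO log2 ratio was 0.80 (0.72 to 0.88) in counting error alone. The KO lists were much shorter at both times, with 0.644% of tags in regions at 1 h and 0.834% at 0 h. The KO libraries were also shallower than the WT ones, with 12572399 tags at 1 h and 13147855 at 0 h. Relative to depth their cut was higher, at 1.35 (1 h) and 1.29 (0 h), against 1.07 and 1.05 in WT. The parts of depth, cut and signal in the differences between KO and WT lists were not tested. This limit holds for list lengths, chains and overlaps alike. The KO 1 h list was also the lone H3K36me3 list with no region on chromosome Y, and the labels do not give the sex of the cultures.

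The 1 h list held relatively more wide regions. Regions made of a single peak of 501 bp or less numbered 9272 at 1 h and 6706 at 0 h, a ratio of 1.38 (1.34 to 1.43). Between 502 and 1000 bp there were 4560 regions at 1 h and 2875 at 0 h, a ratio of 1.59 (1.51 to 1.66). The ratio was 1.88 (1.76 to 2.01) between 1001 and 2000 bp and 1.90 (1.71 to 2.11) between 2001 and 5000 bp. Above 5000 bp there were 101 regions at 1 h and 36 at 0 h, a ratio of 2.81 (1.90 to 4.23). Single-peak regions thus made up 53.3% of the list at 1 h and 58.5% at 0 h.

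Most called regions were found at 1 time only. Of the 1 h regions, 13213 were gained, 75.9% of that list (75.3 to 76.5), and 4195 were kept (24.1%). Of the 0 h regions, 4298 were kept (37.5%, 36.6 to 38.4) and 7161 were lost, 62.5% of that list. In bases, the lists shared 3.09 Mb, with 12.03 Mb at 1 h only and 6.04 Mb at 0 h only. For comparison, 81.9% of KO regions were gained and 84.5% lost, so the WT pair overlapped more than the KO pair, whose lists were shorter. Because no replicate of either WT library was analysed here, turnover in the cells and sampling near the calling threshold cannot be told apart in these shares.

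Whether a region was kept went with its width. A wider region has more chances of an overlap of 1 bp, and that part was not tested. At 1 h the kept share was 11.4% of regions of 501 bp or less, 23.5% at 502 to 1000 bp, 47.9% at 1001 to 2000 bp, 78.3% at 2001 to 5000 bp and 98.0% above 5000 bp. At 0 h the same classes had 24.0%, 44.2%, 67.7%, 92.3% and 100% kept, the last being 36 of 36 regions. Gained and lost regions had the same median width, 501 bp. Kept regions were wider, with medians of 981 bp (1 h list) and 689 bp (0 h list). Gained regions wider than 2000 bp numbered 221, and lost regions of that width numbered 41.

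**Figure D1:**
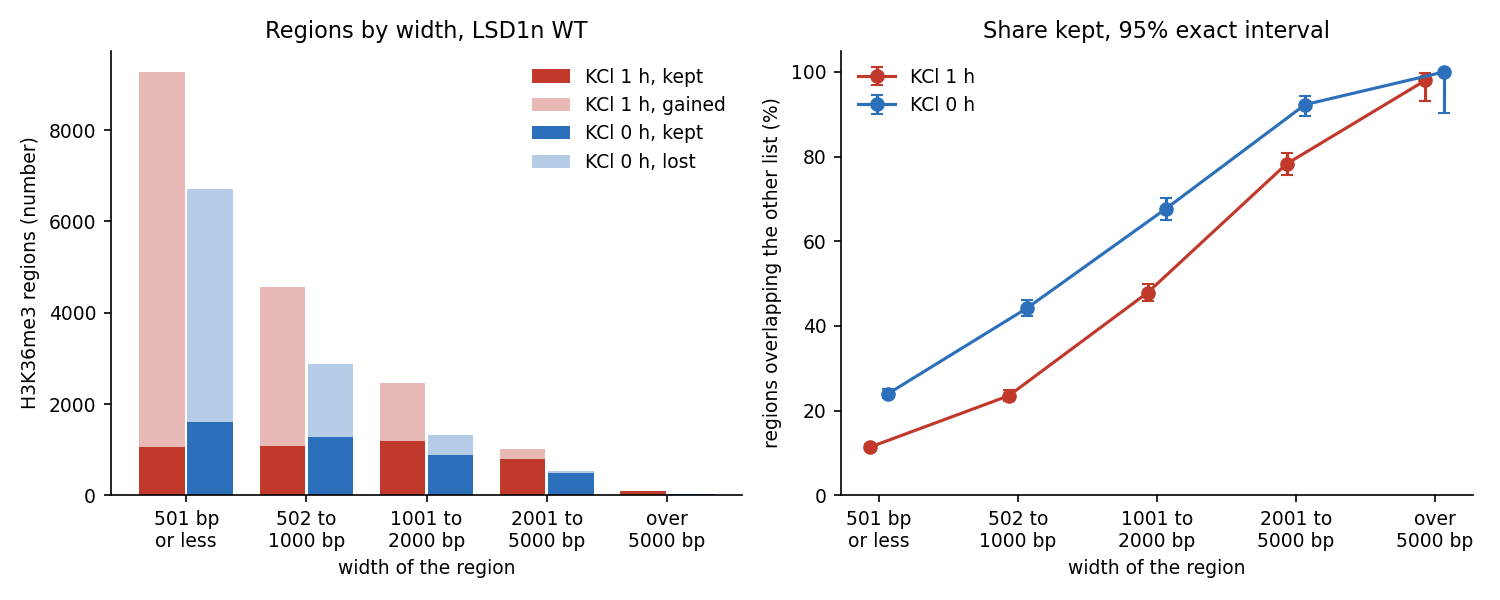
Left, the number of H3K36me3 regions (vertical axis) by width class (horizontal axis) in LSD1n WT at KCl 1 h and 0 h, split into kept (dark) and gained or lost (pale). Right, the percentage kept in each class with 95% exact intervals: it was 11.4% at 1 h and 24.0% at 0 h for the narrowest regions, and 98.0% and 100% for the widest.

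Where the same block was called at both times, it tended to be wider at 1 h. Overlapping regions formed 4053 blocks, of which 3717 had 1 region at each time. Of these 3717, 54.0% were wider at 1 h, 14.5% were equal and 31.4% were narrower, and their median width was 893 bp at 1 h, against 667 bp at 0 h. The 1 h region had over 2 times the width in 876 blocks and under 0.5 times in 293. In 193 blocks 1 region at 1 h spanned several 0 h regions, and in 107 blocks several 1 h regions lay over 1 region at 0 h.

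The widest regions illustrate the classes. The widest kept region, chr11:3026893-3100141 in mm9, spanned 73.2 kb at 1 h, and 0 h regions covered 99.0% of it. The same interval was 97.8% covered in KO at 1 h and 99.1% in KO at 0 h, and peaks of 5 antibody targets were called in it. H4K20me1 regions of WT covered 100% of it at 1 h (replicate 1) and 99.996% at 0 h, so its coverage was not particular to H3K36me3. The second, chr9:102622246-102634428, was 1 region of 12.2 kb at 1 h, where the 0 h list had 3 regions over 69.6% of it. In KO, regions covered 28.6% of that interval at 1 h and 11.2% at 0 h. The third, chr1:90155876-90167210, was 95.5% covered at 0 h.

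The widest gained regions all lay on chromosome 11 and were 5.53, 5.01 and 4.80 kb wide. They were chr11:116697081-116702615, chr11:100342703-100347709 and chr11:116003598-116008396. The nearest Pol II sites of the 1 h list lay 1.86, 8.52 and 3.40 kb away. The widest lost regions were narrower: chr5:114292704-114297300 at 4.60 kb, chr8:98234839-98237917 at 3.08 kb and chr12:36921716-36924702 at 2.99 kb. From these, the nearest Pol II sites lay 25.7, 6.82 and 38.3 kb away in the 1 h list. In the 0 h list they lay 61.3, 1.735 and 38.3 kb away.

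Many regions found at 1 time only lay next to regions of the other time. Of the gained regions, 57.5% lay within 10 kb of a 0 h region, with a median distance of 6976 bp. Of the lost regions, 71.6% lay within 10 kb of a 1 h region, with a median distance of 3263 bp. The denser 1 h list by itself shortens the distance for lost regions, so these shares are not set against each other. A further 17.3% of gained regions sat in chains of their own list with no kept region, 2.29% in chains that also held a kept region, and 22.9% were alone. For lost regions these shares were 6.37%, 0.475% and 21.6%.

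Chains were formed by linking regions of the same list that lie 10 kb or less apart. At 1 h 70.5% of regions (69.8 to 71.2) were in chains of 2 or more, against 60.6% at 0 h (59.7 to 61.5). Chains numbered 3585 at 1 h and 2280 at 0 h. In KO, 35.1% of regions were in chains at 1 h and 37.6% at 0 h. The median gap between neighbouring regions was 10.004 kb in WT at 1 h and 16.8 kb in WT at 0 h.

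The excess of the 1 h list was greatest among long chains. Regions standing alone numbered 5130 at 1 h and 4520 at 0 h, a ratio of 1.13 (1.09 to 1.18). Chains of 2 regions numbered 1710 at 1 h and 1213 at 0 h, a ratio of 1.41 (1.31 to 1.52). The ratio was 1.54 (1.41 to 1.69) for chains of 3 to 4 regions and 2.12 (1.84 to 2.46) for 5 to 9. Chains of 10 or more regions numbered 95 at 1 h and 19 at 0 h, a ratio of 5.0 (3.03 to 8.67). The most regions in a chain were 29 at 1 h and 17 at 0 h, and the longest spans were 115.7 kb at 1 h and 82.7 kb at 0 h.

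A longer list gives longer chains by itself, and the contrast was smaller at equal list lengths. With the 1 h list cut to its 11459 widest regions, 63.0% of regions were in chains at 1 h and 60.6% at 0 h. Chains of 5 or more regions then numbered 327 at 1 h and 301 at 0 h, and chains of 10 or more numbered 34 at 1 h and 19 at 0 h.

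**Figure D2:**
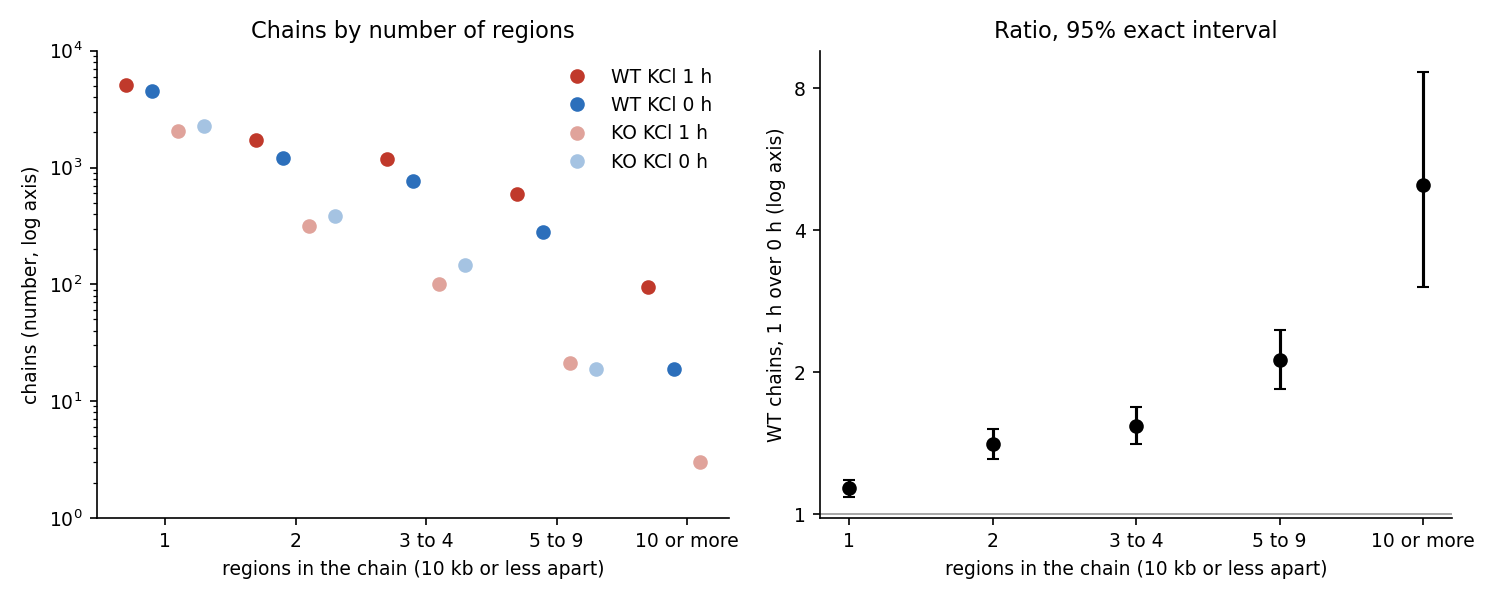
Left, the number of chains (log axis) by regions per chain in LSD1n WT and KO at KCl 1 h and 0 h; KO at 0 h had no chain of 10 or more and has no point there. Right, the ratio of WT chains at 1 h over 0 h (log axis) with 95% exact intervals, which was 1.13 for lone regions and 5.0 for chains of 10 or more.

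Most long chains of one list had at least 1 region of the other list within their span, which does not mean that a long chain was called there at both times. The span of a 1 h chain, gaps included, was overlapped by a 0 h region for 15.9% of lone regions, 48.1% of chains of 2, 71.6% of chains of 3 to 4, 93.0% of chains of 5 to 9 and 97.9% of chains of 10 or more. In the other direction, a 1 h region overlapped the spans of 27.8%, 68.8%, 92.6%, 99.6% and 100% of 0 h chains of the same classes. Long chains span more bases and have more chances of an overlap, and that part was not tested.

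Joining both lists at 10 kb gave 9973 domains. Of these, 4451 (44.6%) had regions at both times, and these took in 71.8% of the regions called at 1 h, against 83.3% of those called at 0 h. Domains with 1 h regions alone numbered 3807 and those with 0 h regions alone 1715, and most of both were single regions. Among domains found at 1 time only, those of 2 or more regions numbered 778 at 1 h and 168 at 0 h.

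The 447 domains with 10 or more regions over both lists mostly had more bases in regions at 1 h. This held for 391 of them (87.5%), against 56 with fewer. The 10 regions can come from either list and the 1 h list was longer, so the choice itself favours domains high at 1 h. The median log2 ratio of bases over the 447 domains was 0.69 with 501 bp added to both sums, near the 0.73 of the whole lists. The 10th and 90th percentiles were -0.12 and 1.54. In 164 of them 1 h regions covered over 2 times the 0 h length. Some domains stood far from the median and are named after their values were seen. Domains chr6:55001727-55031410 and chr19:8894968-8923042 each had 10 regions at 1 h and none at 0 h, over 7.39 and 7.11 kb. In KO neither domain had a region at either time. Domain chr5:37320267-37344464 had 2 regions over 1.00 kb at 1 h and 8 regions over 6.09 kb at 0 h. The lone domain with 5 or more regions at 0 h and none at 1 h was chr11:98657466-98667841, with 5 regions over 4.29 kb.

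**Figure D3:**
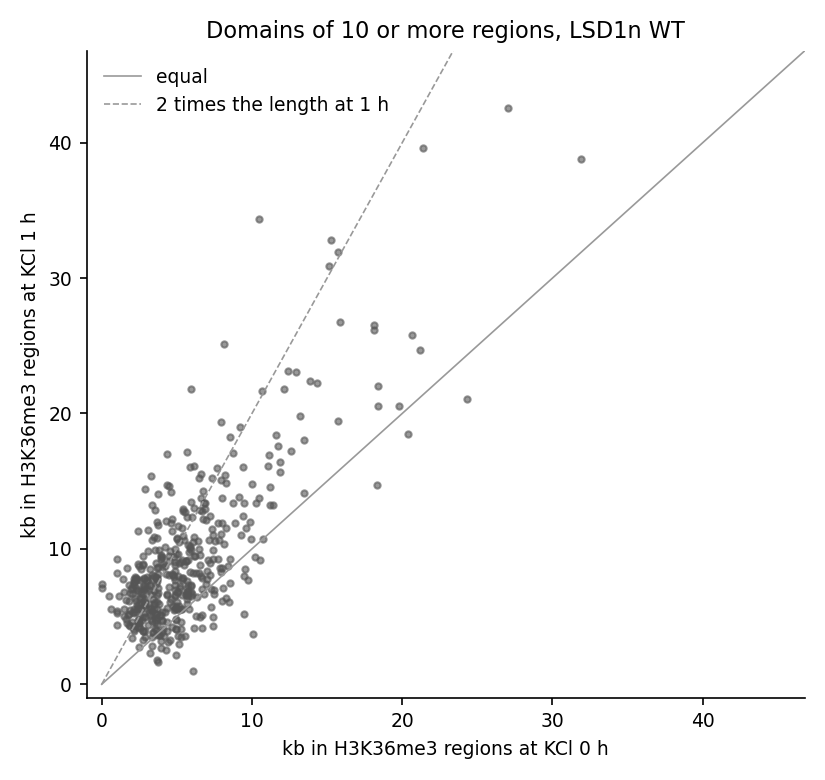
Each point is 1 of 447 domains of 10 or more H3K36me3 regions in LSD1n WT, counted over both lists. The kb in regions at KCl 1 h (vertical axis) is drawn against that at 0 h (horizontal axis). The solid line marks equal length and the dashed line 2 times the length at 1 h; 391 points lie above the solid line.

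The chains named here were chosen by the regions or gained bases of 1 list, so a comparison inside their bounds favours that list. The longest chain at 1 h, chr7:80545603-80661342, spanned 115.7 kb. It held 29 regions covering 29.7% of it at 1 h and 13 regions covering 8.59% at 0 h. KO had 7 regions there at 1 h and 2 at 0 h. The same chain held the most bases in gained regions. No Pol II site of the 1 h list lay inside it and the nearest was 21.5 kb away, while the 0 h list had 2 sites inside.

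The second longest, chr17:56491068-56596918, held 26 regions covering 38.2% at 1 h and 18 regions covering 20.2% at 0 h. KO had 8 regions there at 1 h and 8 at 0 h. The longest chain at 0 h, chr17:56533054-56615734, lay in the same stretch and was 40.8% covered at 1 h and 29.4% at 0 h.

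The third at 1 h, chr11:97312623-97408565, had 23 regions at 1 h and 20 at 0 h. The second longest 0 h chain was chr4:148556134-148631416. It held 15 regions over 26.02% of it at 1 h and 17 over 19.5% at 0 h. The domain around it over both lists, chr4:148553333-148649776, had 21 regions at 1 h and 19 at 0 h.

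Other chains rich in gained regions were chr4:154984501-155039163, with 14 regions over 31.1% at 1 h and 4 over 8.01% at 0 h, and chr10:126975231-127058173, with 21 regions over 37.3% at 1 h and 14 over 18.2% at 0 h. KO had 4 regions in the chromosome 4 chain at 1 h and 3 at 0 h, and 1 region in the chromosome 10 chain at 1 h and 2 at 0 h.

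**Figure D4:**
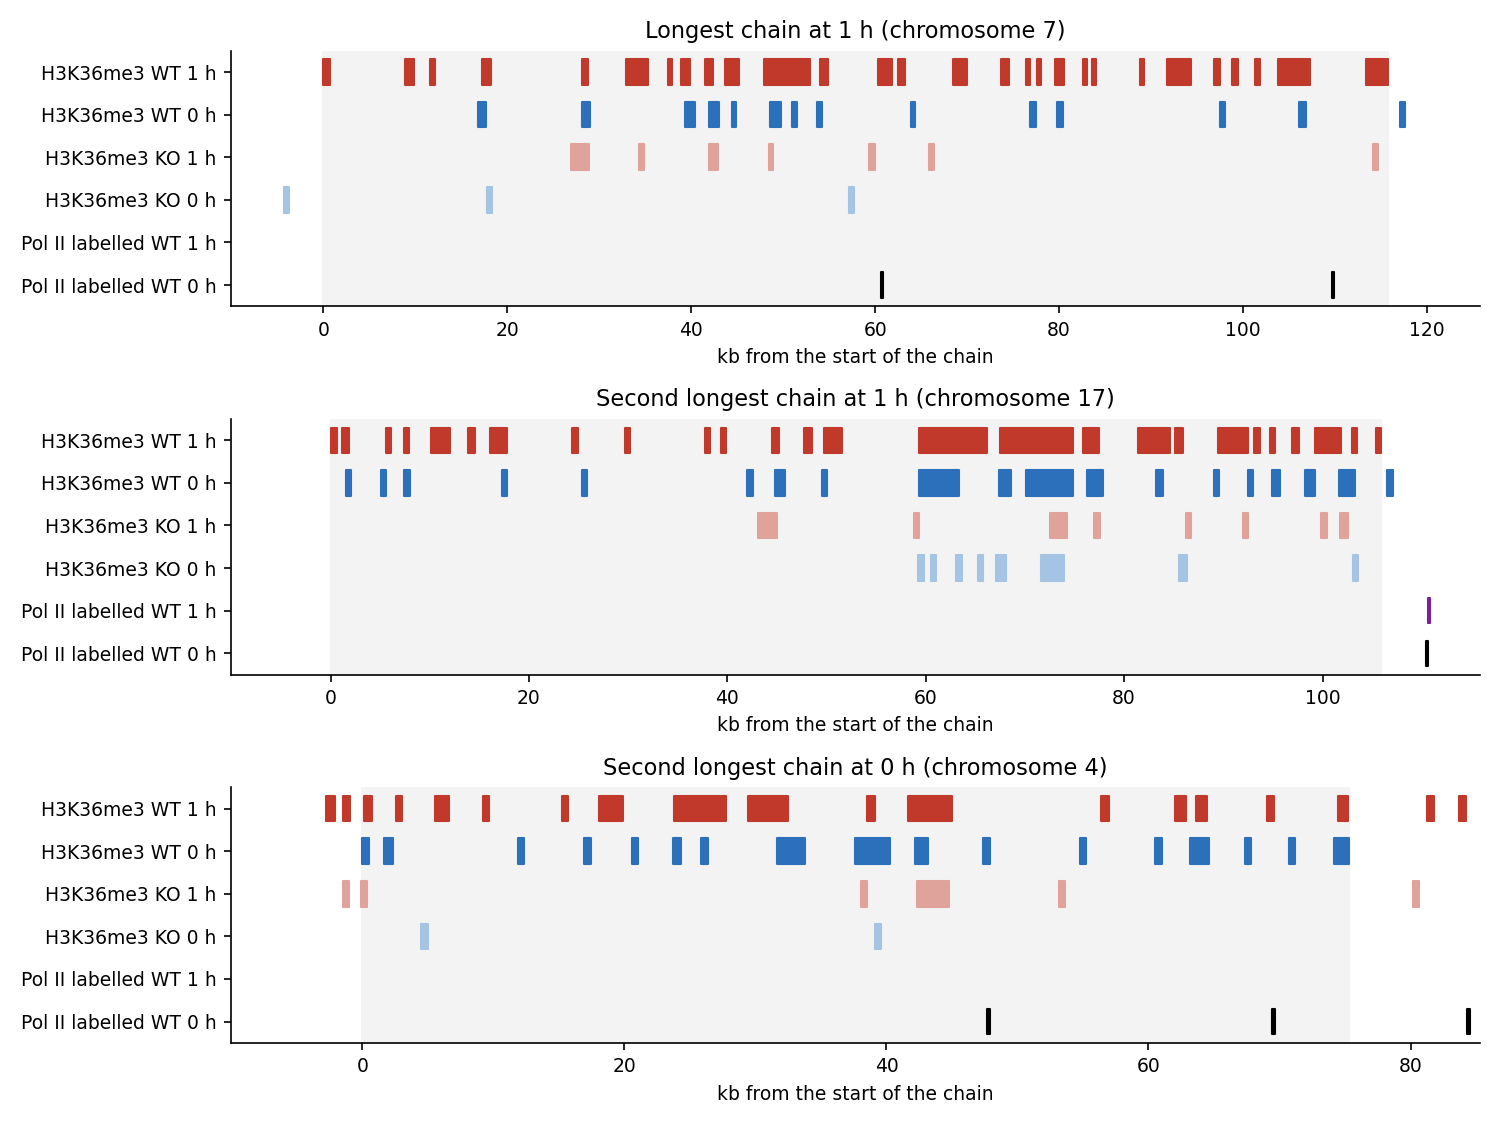
H3K36me3 regions of WT and KO neurons and Pol II sites labelled WT (rows, 1 h above 0 h) in 3 chains, in kb from the start of the chain, which is shaded. Within the first chain the WT 1 h row has 29 regions and the WT 0 h row 13; in the third, 15 and 17.

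Pol II marks where the polymerase was enriched over its surroundings, largely near gene starts, whereas H3K36me3 lies downstream. The Pol II lists follow the sample labels, but each of the 4 Pol II files carries the other genotype in its own name, so values for the lists labelled KO are also given. The lists labelled WT had 13839 sites at 1 h and 12718 at 0 h on chromosomes 1 to 19.

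H3K36me3 regions seldom overlapped Pol II sites but often lay in the neighbourhood of one. In the 1 h Pol II list, a site lay within 10 kb of 32.7% of gained regions (31.9 to 33.5), 45.4% of kept 1 h regions (43.9 to 47.0) and 32.4% of lost regions (31.3 to 33.5). Median distances were 17.9 kb for gained, 11.8 kb for kept and 18.3 kb for lost regions. A direct overlap was found for 0.477% of gained, 3.31% of kept and 0.656% of lost regions. For scale, windows of 10 kb around these sites add up to 238 Mb of the 2000 Mb genome size in the headers.

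Kept regions thus lay nearer to Pol II than gained or lost regions, and gained and lost regions lay at like distances. Gained minus lost was 0.25 percentage points within 10 kb, with a 95% normal interval of -1.09 to 1.60. The 0 h Pol II list gave 33.8% of gained, 47.8% of kept and 32.7% of lost regions within 10 kb. The list labelled KO at 1 h gave 36.2% of gained, 47.5% of kept and 35.2% of lost regions.

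Part of the nearness of kept regions went with their width. Among regions of 501 bp or less, 30.8% of gained (29.8 to 31.9), 36.1% of kept (33.2 to 39.1) and 30.3% of lost regions (29.1 to 31.6) lay within 10 kb of a 1 h site. Gained minus kept was -12.8 percentage points over all widths and -5.30 among these narrow regions.

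The excess of regions at 1 h was present at every distance from Pol II. In the list labelled WT it was smallest for regions that overlap a 1 h site, 202 at 1 h and 165 at 0 h, a ratio of 1.22 (0.992 to 1.51) whose interval reaches below 1. In the list labelled KO at 1 h, 265 regions at 1 h and 190 at 0 h overlapped a site, a ratio of 1.39 (1.15 to 1.69), and the smallest ratio was 1.30 (1.14 to 1.49) up to 1 kb. The order of the nearest classes thus depended on which Pol II list was used. With the list labelled WT the ratio was 1.36 (1.18 to 1.57) up to 1 kb, 1.44 (1.34 to 1.54) at 2 to 5 kb, 1.54 (1.46 to 1.64) at 5 to 10 kb and 1.60 (1.53 to 1.68) at 20 to 50 kb. Beyond 100 kb it was 1.46 (1.33 to 1.61). The gained share was 31.2% among 1 h regions overlapping a site and 81.7% among those beyond 100 kb. The lost share was 28.5% among 0 h regions overlapping a site and 72.9% beyond 100 kb. With the list labelled KO at 1 h, the gained share was 44.2% (38.1 to 50.4) for overlapping regions and 80.1% beyond 100 kb. The lost shares with that list were 36.8% and 71.3%. The part of region width in these shares was not tested.

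**Figure D5:**
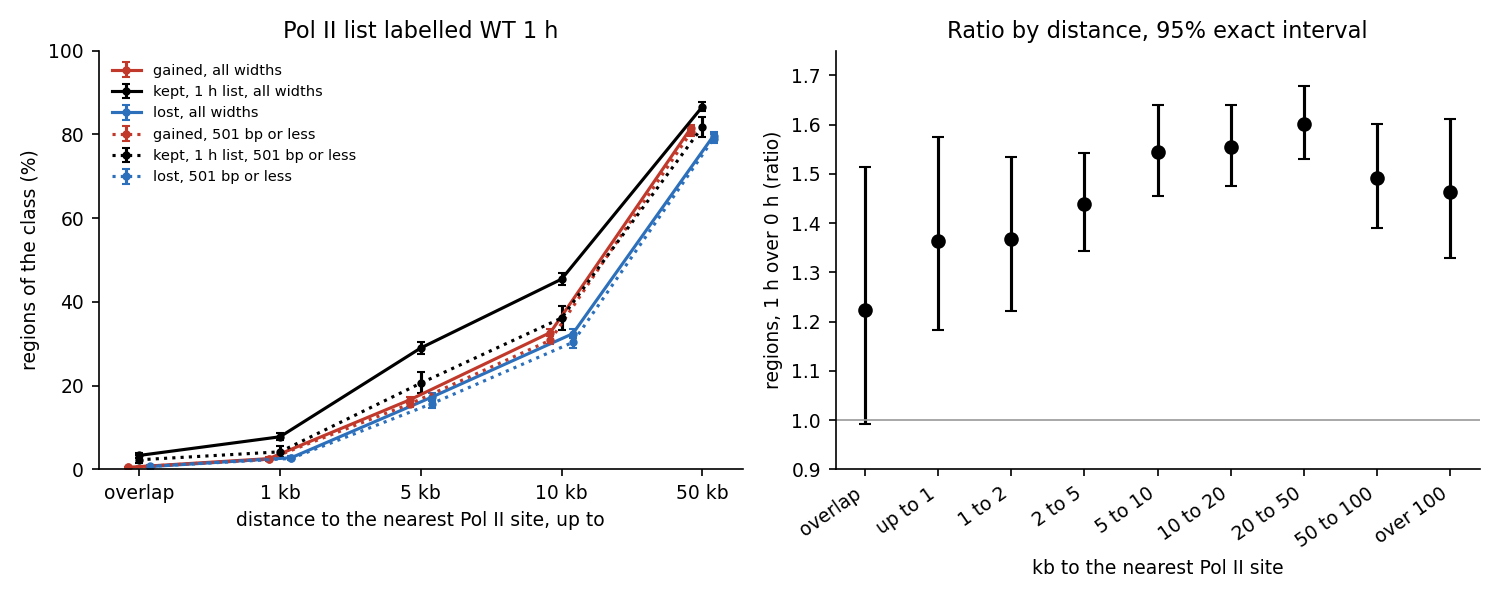
Left, the percentage of gained, kept and lost H3K36me3 regions with a Pol II site of the list labelled WT 1 h up to each distance, over all widths (solid) and for regions of 501 bp or less (dotted), with 95% exact intervals. Right, the ratio of H3K36me3 regions at KCl 1 h over 0 h by distance to the nearest site, with 95% exact intervals: 1.22 for regions overlapping a site and 1.60 at 20 to 50 kb.

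The ratio of H3K36me3 regions at 1 h over 0 h was similar around Pol II sites called at 1 h only, at both times and at 0 h only. Within 10 kb of the 4716 sites found at 1 h only, there were 2030 H3K36me3 regions at 1 h and 1443 at 0 h, a ratio of 1.41 (1.31 to 1.51). Around the 9123 sites of the 1 h list that overlap a 0 h site, the ratio was 1.46 (1.40 to 1.52). Around the 3595 sites found at 0 h only it was 1.47 (1.38 to 1.56). The 3 intervals overlap, but a region near sites of more than 1 kind counts for each kind. The ratios are therefore not independent of each other. These values are for the Pol II lists labelled WT. With the lists labelled KO, the ratio was 1.51 (1.42 to 1.61) around sites found at 1 h only. It was 1.46 (1.40 to 1.52) around sites of both times and 1.48 (1.39 to 1.59) around sites found at 0 h only. The order of the ratios thus depended on which Pol II lists were used.

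The kinds of site differed in how much H3K36me3 lay near them, at both times. A 1 h region lay within 10 kb of 27.8% of the sites found at 1 h only, 38.2% of the sites of both times and 43.4% of the sites found at 0 h only. A 0 h region lay within 10 kb of 21.7%, 29.4% and 33.3% of the same 3 kinds of site. Per Mb of window there were 22.9 regions at 1 h and 16.3 at 0 h near sites found at 1 h only, and 37.4 at 1 h and 25.5 at 0 h near sites found at 0 h only. The lists labelled KO gave the same order, with a 1 h region near 28.8% of sites found at 1 h only, 37.4% of sites of both times and 39.6% of sites found at 0 h only.

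Long chains often had a Pol II site inside them or at an end. Of lone 1 h regions, 33.9% had a 1 h site inside or within 10 kb, against 49.0% of chains of 2 regions, 57.2% of 3 to 4, 59.9% of 5 to 9 and 56.8% of 10 or more. A site inside the span was found for 31.6% (22.4 to 41.9) of the 95 chains of 10 or more regions at 1 h. Another 43.2% of them had no site of this list inside or within 10 kb. With the 0 h Pol II list, 66.3% of these 95 chains had a site inside or within 10 kb and 33.7% had none. Longer chains span more bases in which a site can lie, and that part was not tested.

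The other marks also overlapped kept regions more often than gained or lost ones, and less so among narrow regions. H4K20me1 (monomethylated lysine 20 of histone H4) of WT at 0 h overlapped 14.7% of gained, 31.2% of kept 1 h and 14.4% of lost regions. H4K20me1 of WT at 1 h has 2 libraries, which gave 20.1% and 1.59% of gained, 38.8% and 7.65% of kept, and 19.2% and 1.55% of lost regions. H3K4me1, a mark of enhancers and promoter flanks, overlapped 8.88% of gained, 23.1% of kept and 9.26% of lost regions in WT at 1 h. H3K4me2, found at promoters and enhancers, overlapped 2.41% of gained, 10.6% of kept and 3.00% of lost regions in WT at 1 h. Among regions of 501 bp or less, H4K20me1 of WT at 0 h overlapped 12.9% of gained (12.2 to 13.7), 18.1% of kept (15.8 to 20.6) and 13.2% of lost regions (12.3 to 14.2). For H3K4me2 of WT at 1 h these narrow regions gave 2.15% of gained, 4.84% of kept and 2.49% of lost.

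Kept regions were also those most often called in KO. The KO 1 h list overlapped 3.59% of gained, 22.1% of kept and 3.55% of lost regions, and the KO 0 h list 4.09%, 24.2% and 4.999%. Among regions of 501 bp or less the KO 1 h list overlapped 1.84% of gained (1.56 to 2.15), 7.21% of kept (5.72 to 8.94) and 2.32% of lost regions (1.92 to 2.77). Of the 3152 KO regions at 1 h, 19.5% overlapped regions of the WT 1 h list alone, 27.4% of both WT lists, 9.99% of the WT 0 h list alone and 43.1% of neither.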

How the data were processed

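Chromatin immunoprecipitation with sequencing gave the peak lists. Bowtie and HOMER (versions not given in the sources used here) and build mm9 are named per the submitters' processing notes. Per the file headers, the authors stitched 500 bp H3K36me3 peaks, using 1250 bp as the minimum distance, and called Pol II sites at 200 bp with 4-fold more tags than the surrounding 10 kb. A false discovery rate of 0.001 and 1 tag per position were used, and no control library is named there. The deposited positions are each peak's start and end; the deposited score is 1 throughout and was not used.

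Groups follow the labels. Regions on chromosomes 1 to 19 were compared in Python 3.11.15 with numpy 2.4.6, pandas 2.3.3 and scipy 1.17.1; figures used matplotlib 3.10.9. Distances run edge to edge, and positions count from 1. Ratios have exact conditional Poisson intervals, shares exact Clopper-Pearson intervals and differences of shares normal intervals, at 95%. Tags came from the headers and cover all chromosomes. The functions were tested on simulated lists. The regions named are the 3 widest gained, kept and lost, the 3 longest chains of each list and the 3 chains at 1 h with the most gained bases; other domains were chosen after their values were seen. Members and lists were chosen with earlier results of these data known. The planned gene lists were not run without an mm9 annotation. Alternatives were other chromosomes, widths, overlap rules, chain distances, equal list lengths, other Pol II lists, and leaving out regions called with all 8 targets.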

Additional observations from a re-analysis of the deposited data

Results flagged for a closer look

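The number of H3K36me3 regions at 1 h over 0 h had opposite signs in the genotypes, with a log2 ratio of 0.60 in WT and -0.20 in KO. With 1 library in each group the difference was not tested across samples. The KO 1 h library was shallower than the KO 0 h library and had a higher cut relative to depth, and that part was not tested.

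Chromosomes X and Y, left out above, had fewer regions in the WT list at 1 h than at 0 h. Chromosome X had 34 regions at 1 h and 45 at 0 h, a ratio of 0.756 (0.469 to 1.21), and chromosome Y had 21 at 1 h and 24 at 0 h, a ratio of 0.875 (0.463 to 1.64). Both intervals include 1, and that of Y also includes the ratio of 1.52 on the other chromosomes. X made up 0.195% of the list at 1 h and 0.390% at 0 h. In KO, chromosome X had 12 regions at 1 h and 40 at 0 h, and chromosome Y had 0 at 1 h and 31 at 0 h. The sex of the cultures is not in the labels, so KCl time and the sex of the cultures cannot be told apart in these X and Y counts, and the part of sex in the KO comparison on chromosomes 1 to 19 was not tested.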

How the results depend on the processing

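Of 76 values of 12 results recomputed under alternatives, 46 stayed within the interval of the reported value and 30 moved. For shared bases, which have no interval, the limit was 5% of the value. None of the moved values changed sign, but shares and numbers of chromosomes cannot be negative. Gained minus lost, whose reported intervals include both signs, was negative at some settings and positive at the others. For Pol II within 10 kb it was -0.83 points for regions wider than 501 bp. For H4K20me1 of WT at 0 h it was -0.26 for these wide regions, -0.022 at an overlap of 50% and -0.24 for narrow ones. The log2 ratio of region numbers in WT was 0.78 for regions wider than 501 bp, 0.44 with regions within 5 kb merged, 0.73 by length covered and 0.70 by the tags in regions, and the KO ratio by tags in regions was -0.37. The gained share was 73.1% for wide regions, 68.7% at equal list lengths, 88.1% at an overlap of 50% of the region, 64.2% within 1 kb and 32.3% within 10 kb. The lost share was 53.1%, 67.4%, 75.6%, 46.3% and 17.8% under the same settings. At equal list lengths the gained and lost shares must lie close, because most overlaps join 1 region to 1 region. Their nearness at that setting is therefore not a result. Shared bases were 20.4% of the 1 h bases, 22.6% for wide regions and 23.9% at equal lengths. The share of regions in chains, 1 h minus 0 h, was 9.98 points, 11.8 for wide regions, 8.07 at 20 kb and 2.45 at equal lengths. Gained minus kept within 10 kb of Pol II was -14.8 points for wide regions and -5.30 for narrow ones. The KO 1 h list held 7.72% of gained regions among wide ones, 5.01% at equal lengths, 1.39% at an overlap of 50% and 1.84% among narrow ones. For H4K20me1 of WT at 0 h, gained minus kept was -22.9 points for wide regions, -8.98 at an overlap of 50% and -5.17 for narrow ones, and gained minus lost was 1.53 points at equal lengths. The settings for narrow regions, for chains at equal lengths and for the 0 h Pol II list were chosen after seeing the data; the cause of the moves was not tested.

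No paired analysis was possible because each group has 1 library and no test was run. Depth limits which weak regions pass the calling threshold, and 62.2% of gained and 71.1% of lost regions were single peaks. The files hold no tag counts per region, so regions just under the threshold cannot be counted.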
